A study of Mus musculus with 12 samples.

Results

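The genotype difference described here is the one that gonadal white adipose tissue (gWAT) of KO mice kept on both diets. It was taken as the mean of KO-NCD over WT-NCD and KO-HFD over WT-HFD in a single fit of all 12 RNA-seq libraries, 3 per group. A gene was called shared when this averaged contrast had an adjusted p under 0.05 and its log2 fold change had the same sign on both diets. Of 16352 genes tested, 1757 were shared, 1030 of them higher and 727 lower in KO mice.

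KO mice carried floxed Gja1 alleles and a Csf1r creER transgene, in which the promoter of the Csf1r gene drives a tamoxifen-inducible Cre in macrophages and other Csf1r-expressing cells. WT mice carried the floxed Gja1 alleles without the transgene, so the loxP sites were common to all 4 groups. All mice were males labelled C57BL/6, fed a normal chow diet (NCD) or a high-fat diet (HFD) for 8 weeks from the age of 6 weeks, and the groups were KO-NCD, WT-NCD, KO-HFD and WT-HFD. By the study's methods both genotypes received tamoxifen, but the treatment labels name it for KO mice only and the protocol text for no genotype; if the labels are complete, genotype and tamoxifen cannot be told apart. By the study's methods the Cre line has FVB in its stock name and the floxed line a mixed C57BL/6 and 129 name. Donor chromosome carried over from either line and deletion of Gja1 cannot be told apart in a contrast of KO against WT mice.

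Gja1 encodes connexin 43, a gap junction and hemichannel protein through which ions, metabolites and ATP pass between cells and into the extracellular space. Adipose tissue macrophages take up lipid and debris of dying adipocytes and release inflammatory cytokines, and their number grows in obesity. Whole gWAT also contains adipocytes, progenitors, endothelial cells and lymphocytes. In such bulk samples fewer cells of a type and less RNA per cell cannot be told apart.

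Libraries held 47185990 to 73167755 counts. WT-NCD libraries carried seminal vesicle transcripts that the other groups nearly lacked. Summed over the list and scaled to library size (CPM), they came to 0.142 to 0.436 in KO-NCD and 22650 to 122200 in WT-NCD, and to 3.21 to 16.5 in KO-HFD and 0.0372 to 0.123 in WT-HFD. None of the 12 seminal vesicle genes tested was shared, beside 10.7% of all genes. Genes outside the list with far higher levels in WT-NCD than in WT-HFD were still among the shared lower genes. Slco1a5 averaged 24.2 CPM in WT-NCD and 0.0204 CPM in WT-HFD, and Akr1b7 3.06 and 0.127 CPM. Neither had a count in KO libraries. Whether these transcripts came from the same tissue was not tested. Liver transcripts were highest in KO-NCD 2 and KO-HFD 2, with 843.9 and 2075 CPM over the list. Adipocyte markers summed to 32890 to 43360 CPM in KO-NCD and 47090 to 62550 CPM in WT-NCD libraries. On HFD the order turned round, with 37240 to 44280 CPM in KO-HFD and 21200 to 33530 CPM in WT-HFD libraries. Same-numbered KO libraries of the 2 diets deviated from their group means together for numbers 1 and 2, with correlations of 0.468 and 0.699. Number 3 had 0.195, near the highest value of KO libraries of different numbers, which ran from -0.571 to 0.182. KO and WT libraries of different numbers reached 0.311. The 6 KO libraries may therefore not be 6 independent samples.

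Gja1 (chr10:56377300-56390419, GRCm38) was not lower in KO tissue in these counts. It had 48.9, 150 and 67.1 CPM in KO-NCD libraries, against 73.8, 76.8 and 83.6 CPM in WT-NCD libraries. It had 67.2, 96.8 and 65.7 CPM in KO-HFD libraries, against 68.8, 65.8 and 68.1 CPM in WT-HFD libraries. The highest KO library on each diet was number 2, and the genotypes overlapped on both diets. The averaged log2 fold change was 0.18 (SE 0.23, adjusted p = 0.629). It turned to -0.12 without KO-NCD 2 (adjusted p = 0.564) and to -0.23 without the KO-NCD and KO-HFD libraries 2 (adjusted p = 0.226). Counts over the whole gene in whole tissue do not measure the deletion in macrophages. The study reported the knockout by qPCR of macrophages isolated from adipose tissue. It also reported genotype effects in whole gWAT, on Gja1 by qPCR and on its protein by immunoblot.

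The averaged contrast called 1969 genes (12.0% of those tested), 1100 higher and 869 lower in KO, and 212 of these had opposite signs on the diets. Shared genes made up 10.7% of the genes tested, 6.30% higher and 4.45% lower. For comparison, KO-NCD against WT-NCD called 13.2% of the genes, KO-HFD against WT-HFD 15.7%, and the diet by genotype interaction, which tests whether the genotype difference changes with diet, 17.7%. The median averaged log2 fold change was 0.81 over the shared genes that were higher and -0.49 over those that were lower, beside 0.01 over all genes tested. An absolute averaged log2 fold change of at least 1 was reached by 417 of the higher and 126 of the lower genes. Over all 16352 genes tested, 48.97% had the same sign on both diets.

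**Figure D1:**
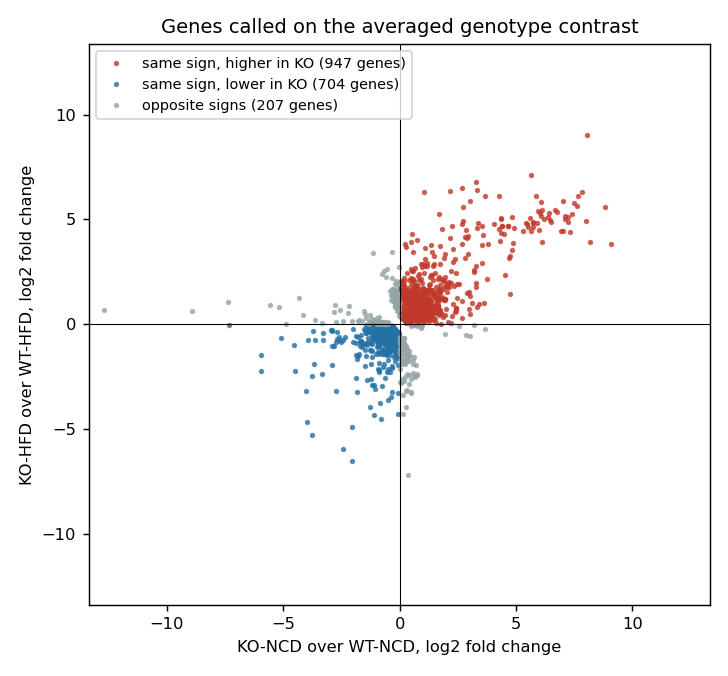
Log2 fold change of KO-NCD over WT-NCD (horizontal) and of KO-HFD over WT-HFD (vertical) for genes called on the averaged contrast. Each point is 1 gene, coloured by whether the signs match; 1858 genes are drawn, and 111 called genes with a group at 0 counts in all its libraries are left out. Of the genes drawn, 947 lie in the upper right (higher in KO on both diets), 704 in the lower left and 207 in the other quadrants.

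Few shared genes were past the threshold on each diet by itself. This was so for 190 genes, of which 128 were higher (0.783% of genes tested) and 62 lower in KO (0.379%), whereas 290 genes past the threshold on each diet had opposite signs. Of the 1757 shared genes, 525 passed on NCD only, 637 on HFD only and 405 on neither diet. The interaction was called for 229 shared genes (13.03%), and for 10 of the 190. All 6 KO libraries lay outside the range of the 6 WT libraries for 270 of the shared higher genes and 181 of the shared lower genes. Over all genes tested this was so for 1.83% in the higher and 1.28% in the lower direction.

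The count depended on the model and on single libraries. A fit that gave genotype 1 effect on both diets (diet plus genotype, 9 residual degrees of freedom) called 859 shared genes, of which 856 were among the 1757. With the KO libraries of a number treated as correlated pairs, a limma fit called 847, against 1459 in limma without the pairs. Leaving out KO-HFD 2 left 704 shared genes, and leaving out both KO libraries 2 left 457. Leaving out WT-NCD 1 and 2, which carried most seminal vesicle RNA, left 103 with 1 WT-NCD library.

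The 12 genes with the smallest p-values of the contrast were picked after their values were seen. Zfp949 (chr9:88548020-88571086), a predicted zinc finger protein gene, had 72.3, 82.5 and 96.8 CPM in KO-NCD libraries, against 14.1, 13.7 and 15.4 CPM in WT-NCD libraries. It had 52.9, 50.8 and 47.5 CPM in KO-HFD libraries, against 13.4, 13.7 and 12.9 CPM in WT-HFD libraries. Every KO library was far above every WT library, and the spread within WT was small. On the averaged scale the log2 fold change was 2.23 (SE 0.08, adjusted p = 4.02e-07), and the rise was larger on NCD than on HFD (interaction adjusted p = 0.0201). Abhd1, an alpha/beta hydrolase gene, is annotated as a transcribed pseudogene. It averaged 22.1 ± 2.46 and 6.76 ± 1.02 CPM in KO-NCD and WT-NCD, and 19.0 ± 2.01 and 3.97 ± 0.267 CPM in KO-HFD and WT-HFD (SD, n = 3 each). Folh1, which encodes glutamate carboxypeptidase II, averaged 30.7 ± 1.23 and 13.5 ± 2.65 CPM in KO-NCD and WT-NCD. On HFD it averaged 30.7 ± 3.61 CPM in KO and 9.77 ± 1.49 CPM in WT (SD, n = 3 each). Col28a1, a collagen gene, and Cdsn, which encodes corneodesmosin, also rose, with averaged log2 fold changes of 2.01 and 1.12.

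Plin2, Hsd17b12 and Gapdh were among the 12 smallest p-values and were lower in KO. Gapdh, the glycolytic enzyme often used as a reference transcript, averaged 286.5 ± 39.1 CPM in KO-NCD and 946 ± 37.6 CPM in WT-NCD, and 223 ± 55.5 CPM in KO-HFD and 396 ± 13.2 CPM in WT-HFD (SD, n = 3 each). Its averaged log2 fold change was -1.28 (SE 0.12, adjusted p = 7.27e-04). Hsd17b12, an enzyme of fatty acid elongation, averaged 168 ± 18.02 CPM in KO-NCD and 418 ± 27.9 CPM in WT-NCD, but 161 ± 12.9 CPM in KO-HFD and 204 ± 4.50 CPM in WT-HFD (SD, n = 3 each).

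**Figure D2:**
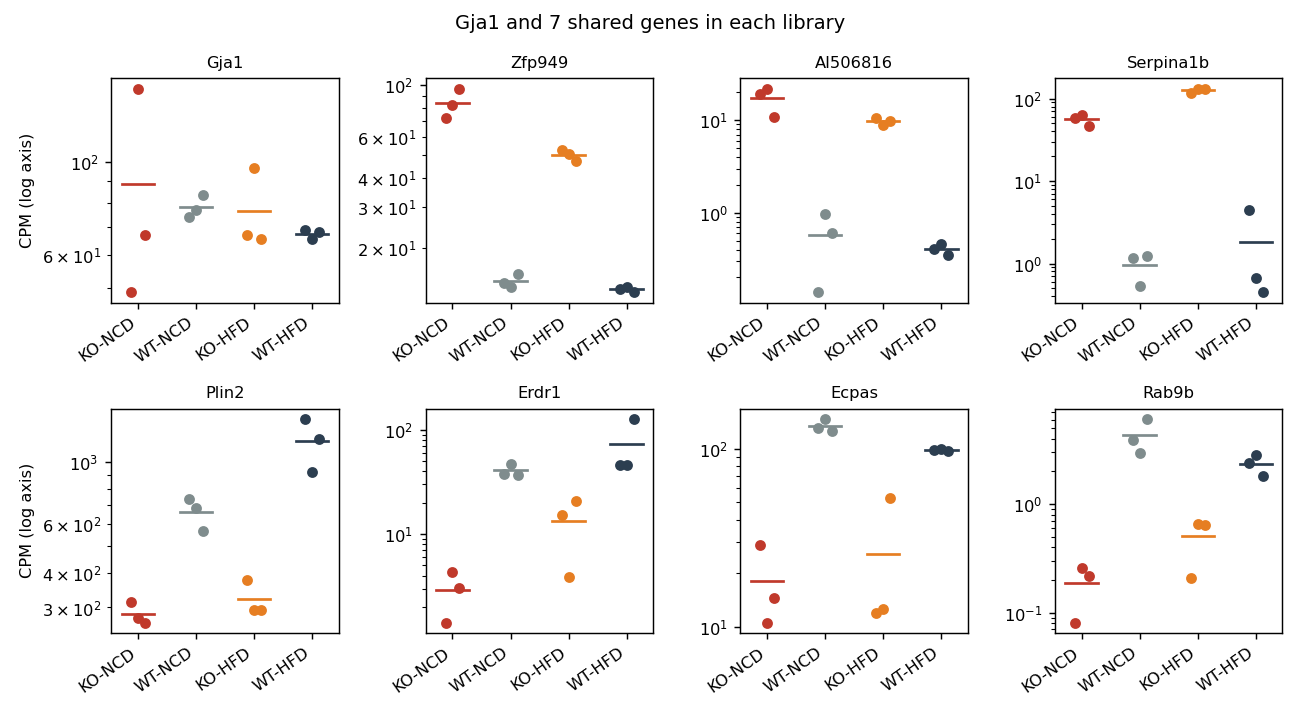
Level of Gja1 and of 7 shared genes in each library, in CPM on a log axis. Each point is 1 library, the line is the mean of the 3 libraries of a group, and groups are ordered KO-NCD, WT-NCD, KO-HFD, WT-HFD. Gja1 overlaps between genotypes, whereas Zfp949, AI506816 and Serpina1b are higher and Plin2, Erdr1, Ecpas and Rab9b lower in all 6 KO libraries.

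Of the shared genes that did not overlap on either diet and had at least 1 CPM in the higher genotype, the 15 higher with the largest fold change on their weaker diet were led by Serpina1b. Serpina1 genes encode alpha-1 antitrypsin, a serine protease inhibitor that the liver secretes in large amounts; mice have several copies side by side on chromosome 12. Serpina1a, Serpina1d and Serpina1e were in the same set of 15, and Serpina1c was shared as well. For these genes that moved together, a stretch of 89 bases near the start of each copy is given 5′ to 3′ on the gene's minus strand (RefSeq, GRCm38.p6), with an unbroken run of 59 bases identical in all 5. Capitals mark GTTAAT, the core of the site of the liver factor HNF1, searched on both strands.
Serpina1a, chr12:103863606-103863694: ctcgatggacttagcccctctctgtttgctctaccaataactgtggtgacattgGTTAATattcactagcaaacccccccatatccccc
Serpina1b, chr12:103738181-103738269: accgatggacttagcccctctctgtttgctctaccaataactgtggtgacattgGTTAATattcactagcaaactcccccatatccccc
Serpina1c, chr12:103904943-103905031: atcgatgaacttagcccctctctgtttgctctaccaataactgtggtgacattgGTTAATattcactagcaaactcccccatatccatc
Serpina1d, chr12:103773615-103773703: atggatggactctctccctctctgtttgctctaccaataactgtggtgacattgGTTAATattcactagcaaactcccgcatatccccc
Serpina1e, chr12:103956941-103957029: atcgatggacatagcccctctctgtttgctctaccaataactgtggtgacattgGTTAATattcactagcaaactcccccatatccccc
The same 6 letters occurred in 7.10% of 32851 RefSeq promoters of 300 bases. A match is a description of these letters and not a shown binding site.

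Serpina1b (chr12:103728156-103738189) had 58.6, 63.9 and 46.98 CPM in KO-NCD libraries, against 1.16, 0.527 and 1.22 CPM in WT-NCD libraries. It had 118, 131 and 132 CPM in KO-HFD libraries, against 4.41, 0.667 and 0.447 CPM in WT-HFD libraries. The KO libraries of a diet were thus close to each other. Its averaged log2 fold change was 6.00 (SE 0.53, adjusted p = 6.05e-04), and 5.94 without the KO libraries 2. Serpina1a, in contrast, had 11.7, 37.2 and 12.9 CPM in KO-NCD libraries and 34.2, 86.5 and 38.9 CPM in KO-HFD libraries, with the highest level in library 2 each time, against 1.45 to 1.88 CPM in WT-NCD and 1.56 to 5.29 CPM in WT-HFD libraries. Serpina1d was closer to Serpina1b in this, with 12.3, 17.4 and 9.89 CPM in KO-NCD and 0.553 to 1.62 CPM in WT-NCD libraries. On HFD Serpina1d had 25.6, 35.3 and 27.6 CPM in KO and 0.0930 to 3.04 CPM in WT libraries, and its averaged log2 fold change without the KO libraries 2 was 3.93 (adjusted p = 0.0305). Serpina1c had 0.101, 33.8 and 11.0 CPM in KO-NCD libraries, against 0.138, 0.560 and 0 CPM in WT-NCD libraries, so that KO-NCD 1 lay inside the range of WT-NCD. Reads of these copies could be shared in counting, since 29.5% of 50-base windows of Serpina1b, 57.6% of Serpina1a and 74.2% of Serpina1c occur in another gene as well.

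Of the 16 genes of the liver list, 13 were shared, all higher in KO (beside 6.30% of all genes tested), and the list's median averaged log2 fold change was 4.63. In limma 2 of the 16 were shared, with or without the KO libraries as correlated pairs. With a replicate block, a term for library number, 2 were shared as well. WT-HFD 4, the only library of its number, adds nothing to the difference in that fit. The list summed to 86.7, 843.9 and 133.9 CPM in KO-NCD libraries and 331.5, 2075 and 474.2 CPM in KO-HFD libraries, against 13.1 to 40.6 CPM in WT-NCD and 14.1 to 88.7 CPM in WT-HFD libraries. Without the KO libraries 2, 3 of the 16 were shared, Serpina1b, Serpina1a and Hpx. Alb, which encodes albumin, had 2.89, 383 and 35.2 CPM in KO-NCD libraries, against 8.37, 4.58 and 7.39 CPM in WT-NCD libraries, so KO-NCD 1 was below all WT-NCD libraries. The ratio of Serpina1b to Alb within a library was 20.3, 0.167 and 1.33 in KO-NCD and 1.27, 0.126 and 0.863 in KO-HFD, against 0.115 to 0.165 in WT-NCD and 0.134 to 0.212 in WT-HFD. In 4 of 6 KO libraries it was thus above every WT library, and in the 2 KO libraries with the most liver RNA it was inside the WT range. For Ahsg, another secreted liver protein, the ratio to Alb was 0.105 to 0.142 in the 6 KO libraries, and 0.101 to 0.615 in the 6 WT libraries. How liver RNA came into these libraries was not tested.

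**Figure D3:**
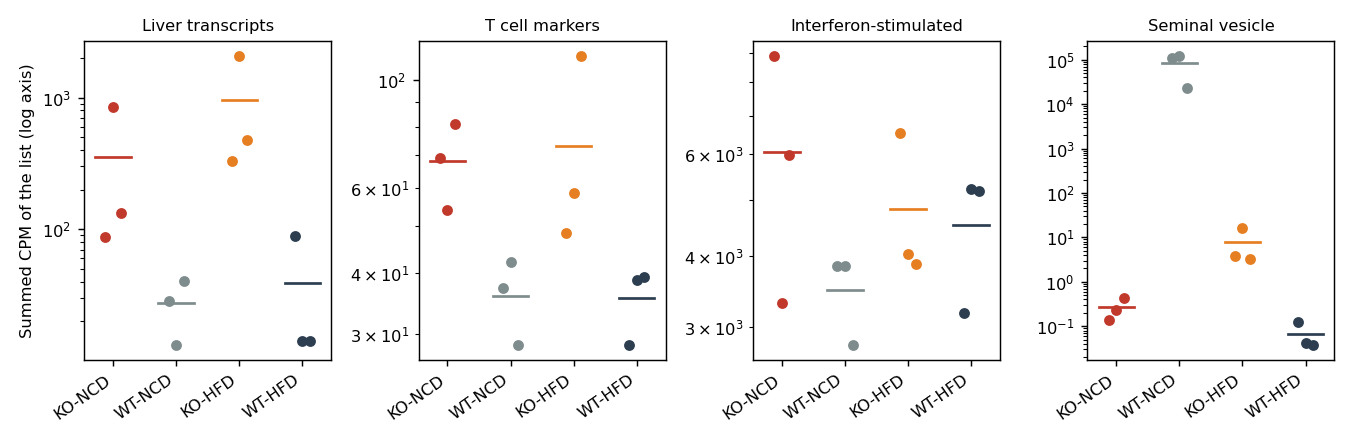
Summed level of 4 gene lists in each library, in CPM on a log axis. Points are libraries, lines are means of 3 libraries, and the groups are KO-NCD, WT-NCD, KO-HFD and WT-HFD. Liver transcripts peak in KO library 2 of each diet, T cell markers do not overlap between genotypes, interferon-stimulated genes overlap, and seminal vesicle transcripts are high in WT-NCD alone.

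Other genes of the set of 15 rose from near absence in WT. The lncRNA gene AI506816 (chr5:23692261-23712667) had 19.0, 21.9 and 10.8 CPM in KO-NCD libraries, against 0.138, 0.973 and 0.601 CPM in WT-NCD libraries. It had 10.5, 8.85 and 9.90 CPM in KO-HFD libraries, against 0.409, 0.459 and 0.354 CPM in WT-HFD libraries. The averaged log2 fold change was 4.74 (SE 0.39, adjusted p = 4.08e-04). Elavl4, which encodes a neuronal RNA-binding protein, had 0.799 to 3.80 CPM in KO-NCD and 1.71 to 2.07 CPM in KO-HFD libraries, and at most 0.148 CPM in any WT library. Mmd2 had 0.586, 7.78 and 1.53 CPM in KO-HFD and no count in WT-HFD, at least 62.3-fold higher by a floor of 3 counts per library. Fgfbp1, a carrier protein of fibroblast growth factors, had 0.324 to 2.54 CPM in KO-NCD and no count in WT-NCD, at least 26.1-fold higher. Serpinc1, Crp, Hpx, Cyp4f14 and Ttc36, which the liver transcribes, were highest in KO library 2 on both diets. Akr1cl and Ecrg4 completed the set and were highest in KO-NCD 2 but, on HFD, in KO-HFD 1, with 9.78 and 8.37 CPM.

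The 15 lower genes of the same rule included Erdr1, Gm3893 and 4933409K07Rik, which are annotated as transcribed pseudogenes. Erdr1, on the X chromosome, had 1.42, 4.35 and 3.04 CPM in KO-NCD libraries, against 37.9, 47.5 and 37.2 CPM in WT-NCD libraries. It had 15.4, 3.91 and 21.0 CPM in KO-HFD libraries, against 46.5, 46.1 and 128 CPM in WT-HFD libraries. It was -3.12 on the averaged log2 scale (SE 0.45, adjusted p = 0.00478). KO-HFD 1 and 3 lay between KO-HFD 2 and the WT libraries. Rab9b, which encodes a small GTPase of endosome transport, had 0.0809, 0.258 and 0.218 CPM in KO-NCD libraries, against 3.86, 2.97 and 6.11 CPM in WT-NCD libraries. In KO-HFD libraries it had 0.210, 0.651 and 0.647 CPM, against 2.37, 2.82 and 1.82 CPM in WT-HFD libraries.

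Ecpas, an adaptor of the proteasome, had 28.8, 10.5 and 14.5 CPM in KO-NCD libraries, against 131, 148 and 127 CPM in WT-NCD libraries. It had 12.0, 12.5 and 52.9 CPM in KO-HFD libraries, against 98.6, 101 and 97.5 CPM in WT-HFD libraries. All WT-HFD libraries were alike, and KO-HFD 3 was about midway between them and the other KO-HFD libraries. The averaged log2 fold change was -2.43 (SE 0.39, adjusted p = 0.00705). Pctp, the phosphatidylcholine transfer protein gene, showed the same order, with 3.43, 4.35 and 10.8 CPM in KO-HFD and 15.8 to 19.8 CPM in WT-HFD libraries. Gm3893, Serpina3b, 4933409K07Rik, Cldn23, Lonrf2, Klra8, Slc9a7, Fhdc1, E030030I06Rik, Arntl2 and Cdk18 made up the rest, with averaged log2 fold changes of -1.60 to -4.33. For Gm3893, 97.7% of its 50-base windows occur in another gene, so its counts are uncertain.

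For many shared genes a single KO library reached the WT range while the others did not. That range covered all 6 WT libraries of both diets. Reaching it does not place a library at the WT level of its own diet. The count was made for shared genes only. Exactly 1 of the 6 KO libraries lay inside the WT range for 306 of the shared higher and 221 of the shared lower genes. That library was KO-HFD 1 for 167 genes, KO-NCD 1 for 146, KO-HFD 3 for 123, KO-NCD 2 for 47, KO-NCD 3 for 30 and KO-HFD 2 for 14. A plain case was Entpd4, a gene of a nucleotide hydrolase. It had 51.7, 26.2 and 53.2 CPM in KO-NCD libraries, against 26.6, 25.0 and 25.4 CPM in WT-NCD libraries. In KO-HFD libraries it had 41.2, 57.6 and 44.2 CPM, against 24.9, 27.4 and 24.7 CPM in WT-HFD libraries. KO-NCD 2 was thus at the WT level, and the remaining 5 KO libraries were above every WT library. All 50-base windows of Entpd4 occur in another gene, so its counts are uncertain.

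Entpd4 belonged to a list of 49 candidate genes for differences between inbred mouse strains, chosen with earlier results of these data known. Of the 43 that were tested, 7 were shared and higher and 2 shared and lower in KO, 20.9% of the list beside 10.7% of all genes, and the list's median averaged log2 fold change was -0.04. In limma 5 were higher and 3 lower, and with KO libraries as correlated pairs 4 were higher and 1 lower. Nnt, the mitochondrial transhydrogenase gene that is truncated in a widely used C57BL/6 substrain, had 40.4, 68.8 and 58.1 CPM in KO-NCD libraries, against 24.9, 27.2 and 28.9 CPM in WT-NCD libraries. It had 44.7, 57.9 and 36.7 CPM in KO-HFD libraries, against 21.6, 23.8 and 24.2 CPM in WT-HFD libraries. No KO library reached down to the WT range, and the averaged log2 fold change was 1.02 (SE 0.14, adjusted p = 0.00419). By diet it was 1.05 on NCD and 1.00 on HFD (interaction adjusted p = 0.933).

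Naip6, of the NAIP family that senses bacterial proteins for the inflammasome, had 17.5, 6.98 and 11.8 CPM in KO-NCD libraries, against 1.64, 4.65 and 0.520 CPM in WT-NCD libraries. It had 7.77, 8.61 and 7.49 CPM in KO-HFD and no count in WT-HFD, at least 150.2-fold higher. Alad, a heme synthesis enzyme gene known to vary in copy number between strains, and its neighbour Hdhd3 passed the threshold on HFD alone, and their interaction was called (adjusted p = 0.00951 and 0.0086). Hdhd3 averaged 12.5 ± 0.561 CPM in KO-HFD and 3.39 ± 0.359 CPM in WT-HFD, and 15.96 ± 2.89 CPM in KO-NCD and 11.3 ± 2.91 CPM in WT-NCD (SD, n = 3 each). Klra8, an activating receptor gene of natural killer cells that some strains lack, had 1.07, 0.142 and 0.265 CPM in KO-NCD libraries, against 1.09 to 2.13 CPM in WT-NCD libraries. In KO-HFD libraries Klra8 had 0.571, 0.0686 and 0.198 CPM, against 1.49, 2.95 and 3.59 CPM in WT-HFD libraries. Hc, the complement C5 gene, and Apoa2 rose mainly in the KO libraries 2 and lost the call without them, at adjusted p of 0.159 and 0.151. Raet1e, the remaining lower gene, stayed at or under 0.155 CPM in all KO libraries and reached 1.42 CPM in WT.

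Over the autosomes and the X chromosome, shared genes ran between 8.69% of tested genes on chromosome 14 and 15.1% on chromosome 6, with 13.1% on chromosome 9 and 12.6% on chromosome 15. Within 10 Mb of Gja1 on chromosome 10, a region that comes with the floxed allele in KO and WT mice alike, 9 of 90 tested genes were shared (10%), beside 10.7% of all genes. Shared genes had a shared gene as direct neighbour among tested genes in 25.2% of cases, beside 20.1% for all tested genes.

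**Figure D4:**
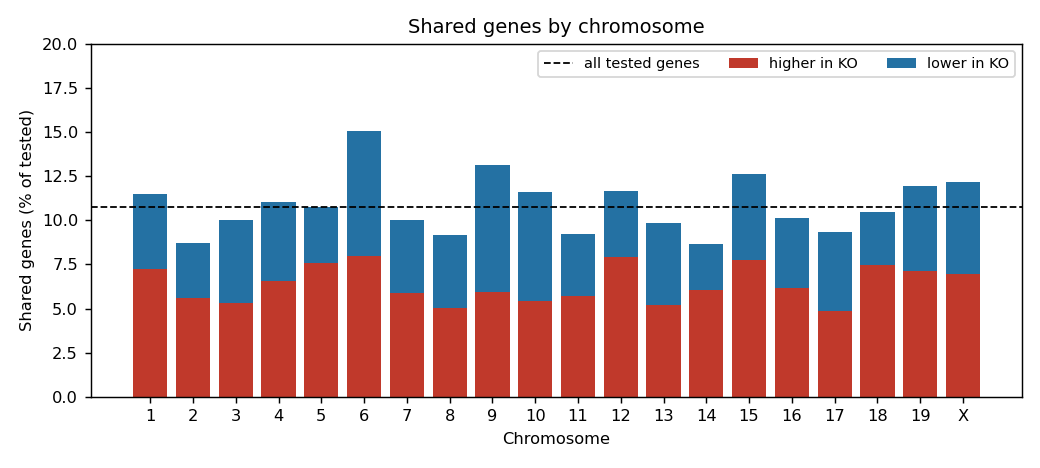
Percent of tested genes that were shared on each autosome and the X chromosome, split into higher and lower in KO. The dashed line is the share over all tested genes (10.7%), and the bars range between 8.69% on chromosome 14 and 15.1% on chromosome 6.

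Of 262 windows of 10 Mb with at least 10 tested genes, the median window held 9.87% shared genes. The highest was chr4 at 60 to 70 Mb, with 18 of 51 genes (35.3%), 17 of them higher in KO. It holds the cluster of Mup genes, which encode urinary proteins made in the liver, and 10 of 20 Mup genes tested were shared. Summed over the Mup genes of the window, levels were 0.283, 322 and 33.3 CPM in KO-NCD libraries, against 3.80 to 5.66 CPM in WT-NCD libraries. They were 78.1, 738 and 161 CPM in KO-HFD libraries, against at most 38.2 CPM in WT-HFD libraries, and KO library 2 was highest on each diet, as for the liver list. Outside the Mup genes, 8 of 31 genes of the window were shared (25.8%), among them Hdhd3, Alad, Tnfsf15 and Zfp618 higher and the copper transporter gene Slc31a1 lower. The next was chr6 at 100 to 110 Mb with 5 of 16 genes (31.3%; Edem1, Arl8b and Gxylt2 lower, Pdzrn3 and Crbn higher). Gxylt2 lost its call in 18 of 23 alternatives, Crbn in 13, Arl8b in 5, Pdzrn3 in 3 and Edem1 in 2. Then came chr9 at 80 to 90 Mb with 9 of 37 (24.3%). The ranks depended on window size. With windows of 5 Mb the highest was chr10 at 0 to 5 Mb, with 4 of 10 genes (40%).

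The window on chromosome 9 had Zfp949 as its only higher gene and 8 lower ones. Mthfs and Mthfsl, neighbouring genes of folate metabolism that share sequence, fell together, with averaged log2 fold changes of -0.70 and -0.66. Tmed3 and Cyb5r4 fell by 0.61 and 0.64 on the log2 scale. The lncRNA gene 9330159M07Rik had 1.08 to 1.56 CPM in KO-NCD and 7.58 to 8.53 CPM in WT-NCD libraries. On HFD it had 1.16, 4.99 and 5.32 CPM in KO and 5.28 to 8.70 CPM in WT, so KO-HFD 2 and 3 were near the WT level while KO-HFD 1 was not.

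Among markers of cell types, those of T cells rose most widely. Of 13 tested, 7 were shared and higher (53.9%, beside 6.30% of all genes) and none lower, and the median averaged log2 fold change was 1.18. Cd4, the coreceptor of helper T cells, had 9.51, 5.80 and 8.71 CPM in KO-NCD libraries, against 2.48, 3.07 and 2.19 CPM in WT-NCD libraries. It had 4.19, 9.74 and 13.1 CPM in KO-HFD libraries, against 1.31, 1.68 and 2.98 CPM in WT-HFD libraries. Cd4 rose by 1.91 on the averaged log2 scale (SE 0.30, adjusted p = 0.00677). Foxp3, the transcription factor of regulatory T cells, rose by 1.65 on average, and the T cell receptor components Cd3e and Cd3g by 1.54 and 1.44. Foxp3 reached at most 2.73 CPM and overlapped on HFD. It lost the call with KO libraries as correlated pairs (limma adjusted p = 0.0554) and without the KO libraries 2 (adjusted p = 0.069). Il2ra and Ctla4 of the same list, at 0.13 and 1.48, were not called (adjusted p = 0.605 and 0.0978). Cd8a, of cytotoxic T cells, had an averaged log2 fold change of 1.19 and missed the threshold (adjusted p = 0.0717).

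T cell markers summed to 54.0 to 81.2 CPM in KO-NCD and 48.4 to 112 CPM in KO-HFD libraries, against 28.5 to 42.1 CPM in WT-NCD and 28.4 to 39.3 CPM in WT-HFD libraries. In limma 5 of the 13 genes were shared and higher, and 3 with KO libraries as correlated pairs. The replicate block gave 1, and the fit without WT-NCD 1 and 2 none. None of 12 B cell genes was shared (beside 10.7% of all genes), although their median averaged log2 fold change was 1.32. KO-HFD 3 alone had 376 CPM of B cell markers, against 40.5 to 95.1 CPM in the other KO libraries and 28.2 to 80.1 CPM in WT libraries. Of 13 natural killer cell genes, Klrk1 and Eomes were shared and higher (15.4%, beside 6.30% of all genes), but in limma none was shared, with or without the KO libraries as correlated pairs.

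Of 40 interferon-stimulated genes, which include GTPases that act against intracellular microbes, 8 were shared and higher (20%, beside 6.30% of all genes) and none lower. In limma 6 were shared and higher, and 3 with KO libraries as correlated pairs. Gbp8 averaged 17.4 ± 8.13 CPM in KO-NCD and 5.42 ± 1.25 CPM in WT-NCD, and 12.6 ± 1.43 CPM in KO-HFD and 7.75 ± 1.62 CPM in WT-HFD (SD, n = 3 each). Iigp1 and Ifit2 rose by 1.20 and 1.15 on the averaged log2 scale. The list's summed level overlapped between genotypes on both diets, with 3312 to 8899 CPM in KO-NCD against 2792 to 3833 CPM in WT-NCD, and KO-NCD 2 was the lowest of its group. In the fit with the replicate block none of the 40 was shared.

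Of 32 macrophage genes tested, 1 was shared and higher (Timd4, a receptor of resident macrophages for dying cells) and 3 were shared and lower, 12.5% of the list beside 10.7% of all genes. In limma with KO libraries as correlated pairs 1 of the 32 was shared. The interaction was called for 20 of the 32, beside 17.7% of all genes. Gpnmb, a gene of lipid-laden macrophages, averaged 16.2 ± 6.37 CPM in KO-NCD and 27.96 ± 9.82 CPM in WT-NCD, and 30.5 ± 11.3 CPM in KO-HFD and 697 ± 755 CPM in WT-HFD (SD, n = 3 each). Its averaged fall of 2.65 on the log2 scale came mostly from HFD (interaction adjusted p = 0.0227). The median averaged log2 fold change of the list was -0.46, with medians of 0.63 on NCD and -1.55 on HFD. None of 31 antigen presentation genes and none of 30 oxidative phosphorylation genes was shared, beside 10.7% of all genes. The interaction was called for 27 of the 30 oxidative phosphorylation genes, beside 17.7% of all genes.

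**Figure D5:**
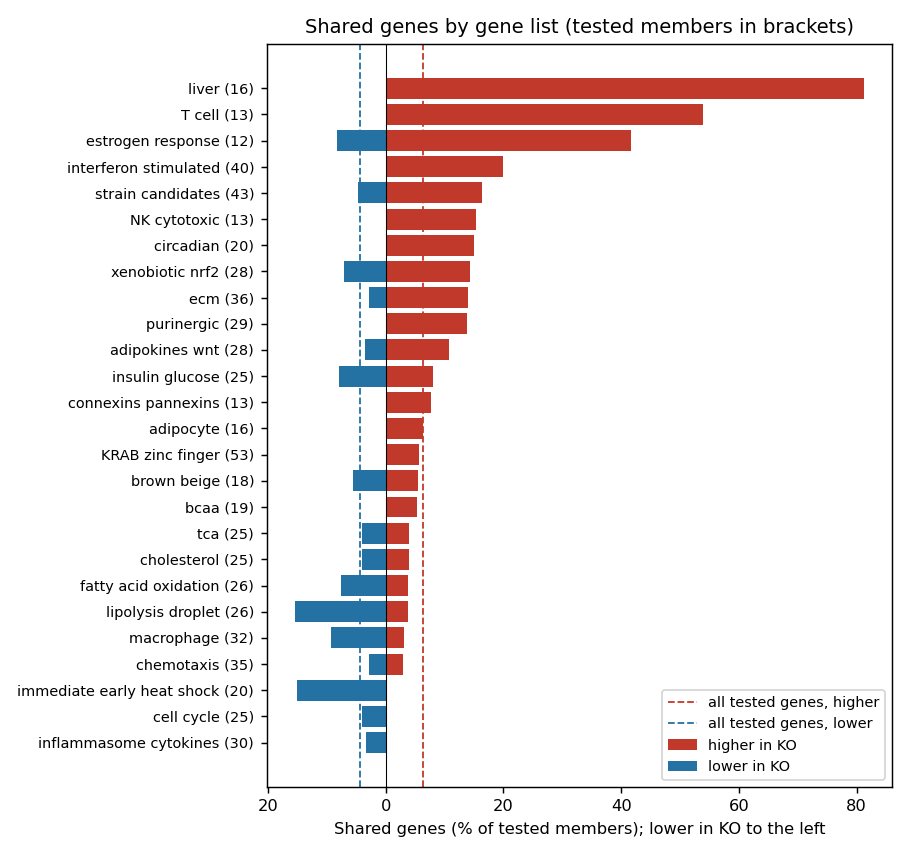
Percent of tested members that were shared, for each gene list with at least 10 tested members and at least 1 shared gene, with genes higher in KO to the right and genes lower in KO to the left; the number of tested members stands in brackets. Dashed lines give the same over all tested genes (6.30% higher, 4.45% lower). The liver, T cell and estrogen response lists have the largest shares of higher genes.

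Lipid droplet genes included the clearest shared fall. Plin2 (chr4:86626910-86670217), the perilipin that coats lipid droplets in macrophages, hepatocytes and other cells, had 314, 276 and 265 CPM in KO-NCD libraries, against 737, 682 and 567 CPM in WT-NCD libraries. It had 375, 293 and 295 CPM in KO-HFD libraries, against 1428, 917 and 1206 CPM in WT-HFD libraries. No KO library overlapped a WT library, and the averaged log2 fold change was -1.55 (SE 0.13, adjusted p = 4.08e-04). Of 26 genes of lipolysis and droplets, Fabp5, Plin5 and Abhd5 fell too (19.2% of the list was shared, beside 10.7% of all genes), and Npr3, the natriuretic peptide clearance receptor, rose by 0.75. Fabp5, a fatty acid carrier, averaged 193 ± 9.34 CPM in KO-NCD and 331 ± 63.6 CPM in WT-NCD, and 290 ± 45.8 CPM in KO-HFD and 510 ± 220 CPM in WT-HFD (SD, n = 3 each). Angptl4, an inhibitor of lipoprotein lipase, fell by 0.99 on average, with overlap on NCD. No lipogenesis gene was shared among 27, beside 10.7% of all genes. Of the 27, 5 were called with opposite signs, beside 212 of all 16352 genes tested.

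In glucose metabolism, Pkm, the pyruvate kinase gene, averaged 493 ± 53.4 CPM in KO-NCD and 718 ± 55.6 CPM in WT-NCD, and 410 ± 35.8 CPM in KO-HFD and 666 ± 98.6 CPM in WT-HFD (SD, n = 3 each). Pfkl fell as well, by 0.46, while hexokinase 2 (Hk2) and the glycogen regulator Ppp1r3c rose by 0.68 and 0.62. Of 20 heat shock and immediate early genes, the chaperones Hsph1, Hsp90aa1 and Hspa8 fell by 0.97, 0.45 and 0.41 on the averaged log2 scale (15%, beside 4.45% of all genes), and none rose.

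Genes that estrogen or the estrogen receptor regulate were given for the tamoxifen named in the KO labels, since tamoxifen binds that receptor. Of 12 tested, 5 were shared and higher and 1 lower (beside 6.30% and 4.45% of all genes), and the median averaged log2 fold change was 0.91. In limma 4 were higher and 1 lower, with or without the KO libraries as correlated pairs. Esr1, the estrogen receptor gene, had 340, 138 and 139 CPM in KO-NCD libraries, against 77.5, 78.7 and 106 CPM in WT-NCD libraries. It had 139, 135 and 82.3 CPM in KO-HFD libraries, against 40.0, 53.2 and 34.7 CPM in WT-HFD libraries. Stc2, Igfbp4, Gper1 and Greb1 were higher, Greb1 mostly in the KO libraries 2 (18.8 CPM in KO-NCD 2 and 14.6 CPM in KO-HFD 2, at most 1.83 CPM elsewhere). The gene of the list that was lower was Ctsd, the cathepsin D gene, which fell by 1.10. Ctsd averaged 1031 ± 61.5 CPM in KO-NCD and 1937 ± 195 CPM in WT-NCD, and 1356 ± 267 CPM in KO-HFD and 3329 ± 1243 CPM in WT-HFD (SD, n = 3 each). The part of tamoxifen in these values was not tested.

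Clock genes Nr1d1, Hlf and Bhlhe41, 3 of 20, were shared and higher (15%, beside 6.30% of all genes). In limma the count was 4, and 2 with KO libraries as correlated pairs. Nr1d1, a repressor of the circadian clock, averaged 234 ± 5.53 CPM in KO-NCD and 144 ± 17.5 CPM in WT-NCD, and 171 ± 28.2 CPM in KO-HFD and 99.2 ± 18.9 CPM in WT-HFD (SD, n = 3 each). The hour of tissue collection was not given in the sources used here. Of 28 genes of detoxification, 4 rose and 2 fell, 21.4% of the list beside 10.7% of all genes. Gsta4, a glutathione transferase of lipid peroxidation products, had 56.5, 96.8 and 76.7 CPM in KO-NCD libraries, against 34.9, 23.4 and 28.5 CPM in WT-NCD libraries. It had 67.0, 42.6 and 52.7 CPM in KO-HFD libraries, against 4.78, 7.67 and 2.27 CPM in WT-HFD libraries, and the interaction was called (adjusted p = 0.0224).

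Among 13 connexins and pannexins, the channel family of Gja1, 1 was shared (7.69%, beside 10.7% of all genes), Gjc1, which encodes connexin 45. It had 35.9, 29.7 and 32.9 CPM in KO-NCD libraries, against 21.3, 18.3 and 27.8 CPM in WT-NCD libraries. In KO-HFD libraries Gjc1 had 35.2, 33.4 and 32.6 CPM, against 25.5, 23.7 and 17.5 CPM in WT-HFD libraries, an averaged log2 fold change of 0.57 (SE 0.12, adjusted p = 0.0176). Of 29 purinergic genes, 4 were shared and higher (13.8%, beside 6.30% of all genes) and none lower. In limma the count was 3, and 2 with KO libraries as correlated pairs, and with the replicate block none was shared. They were Entpd4 and Entpd2, which hydrolyse extracellular or luminal nucleotides, the adenosine receptor gene Adora1, and P2rx2, which stayed at or under 1.49 CPM in every library. Adora1 rose by 0.69 on the averaged log2 scale, with 117 to 129 CPM in KO-NCD and 82.8 to 109 CPM in WT-NCD.

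Of 36 matrix genes, 5 were shared and higher and Mmp12 lower, 16.7% of the list beside 10.7% of all genes. With KO libraries as correlated pairs in limma, 3 were higher and none lower, against 4 and 1 without the pairs. Prelp, a proteoglycan gene, averaged 533 ± 16.4 CPM in KO-NCD and 286 ± 63.5 CPM in WT-NCD (SD, n = 3 each), and on HFD the genotypes overlapped. Pparg, the regulator of adipocyte differentiation, was the only shared one of 16 adipocyte genes (6.25%, beside 10.7% of all genes). It rose on HFD, with 276 to 292 CPM in KO-HFD and 123 to 160 CPM in WT-HFD libraries. The lists of endothelial, progenitor and mesothelial markers had no shared gene among 16, 20 and 11 tested, beside 10.7% of all genes.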

How the data were processed

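The authors sequenced mRNA libraries (TruSeq stranded kit) of gWAT from 12 samples and deposited a table of raw counts per gene. Per the labels and the study's methods, reads were converted with bcl2fastq 2.20.0, trimmed with Trimmomatic, mapped to mm10 with HISAT2 2.1.0 and counted with StringTie 1.3.4d; the strand setting of the counting is not given in the sources used here. One WT-HFD column, numbered 4, has a number that no sample title carries and was used as a WT-HFD library. Of 19792 genes, 19745 matched RefSeq GRCm38.p6.

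Genes kept by filterByExpr (minimum count 10, total 15) held 99.989% of the counts, which were scaled by TMM. Counts were fitted with edgeR 4.0.16 (R 4.3.3), 1 mean per group, 8 residual degrees of freedom, and tested with the quasi-likelihood test with Benjamini-Hochberg adjustment over 16352 genes at 0.05. Every adjusted p in the report is from that test unless limma 3.58.1 or DESeq2 1.42.0 is named. The common dispersion was 0.115. The steps were tested on simulated counts with 100 genes changed 2-fold and 100 changed 4-fold in KO on both diets. They recovered 76 and 92 of these, and 9 of 177 calls were wrong. Libraries were simulated as independent and without a diet effect, so correlated KO libraries and seminal vesicle RNA were not covered. CPM values are TMM-scaled and not divided by gene length. Replicates are described as biological in the series text, and p-values measure the spread between these libraries. Depth gives at least 47185990 counts per library; a floor of 3 counts covers counting error only.

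Named genes were Gja1, 15 higher and 15 lower shared genes without overlap on either diet by the larger fold change on the weaker diet, up to 4 shared genes of each list, all shared strain and connexin genes, up to 6 genes of the 3 highest windows, and 6 called genes with opposite signs. Genes named outside this rule, after their values were seen, are Abhd1, Folh1, Col28a1, Cdsn, Hsd17b12 and Gapdh, of the 12 smallest p-values, Serpina1c, Alb, Cd8a, Abhd5, Gper1, Greb1 and C1rb. Slco1a5, Akr1b7, Il2ra and Ctla4 were also named after their values were seen. The members, lists and this rule were chosen with earlier results of these data known. Sequence sharing was counted as 50-base windows of a gene's GENCODE M21 transcripts found in another gene. Alternatives were DESeq2, its size factors, other filters, an additive fit, a replicate block, other thresholds, left-out libraries, seminal vesicle genes left out, and, added after seeing the data, limma voom with and without KO libraries of a number as correlated pairs.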

Additional observations from a re-analysis of the deposited data

Results flagged for a closer look

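Among the 127 genes named by the rule, 25 had a genotype difference that changed with diet (interaction adjusted p under 0.05 in edgeR). The values are the log2 fold change on HFD minus that on NCD. It was negative for Il1rn (-4.19), Gpnmb (-3.73), Fblim1 (-2.01), Cdk20 (-1.81), Rbpj (-1.47), Fbln5 (-0.80), Cyp4b1 (-0.76), Zfp949 (-0.62) and Cyb5r4 (-0.62). It was positive for Idh2 (0.46), Slc31a1 (0.50), Pfkl (0.70), Pparg (0.77), Gstt1 (0.97), Etfb (1.04), Aldh6a1 (1.29), Prkd1 (1.37), Hdhd3 (1.38), Tnk2 (1.42), Agt (1.71), Alad (1.75), Gsta4 (2.05), Tlcd2 (3.24) and Serpina3b (3.73). For Naip6, without a count in WT-HFD, the interaction had an adjusted p of 0.00741. Hsd17b12 and Gapdh, named outside the rule, also passed, with interaction adjusted p of 0.0037 and 0.0273.

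Fblim1, Cdk20, Rbpj, Prkd1, Tnk2 and Tlcd2 were called on the averaged contrast although their signs differed between diets, and are therefore not shared genes. Tlcd2 had 8.92, 12.1 and 9.21 CPM in KO-NCD libraries, against 69.2, 52.4 and 55.4 CPM in WT-NCD libraries, but 11.3, 9.75 and 15.3 CPM in KO-HFD and 7.38, 7.79 and 7.28 CPM in WT-HFD libraries. Il1rn, the interleukin 1 receptor antagonist gene, counted as shared only because its NCD difference of -0.07 had the same sign as the fall on HFD.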

How the results depend on the processing

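Counts are given for the averaged contrast, the shared genes and the genes past the threshold on each diet, then for NCD, HFD and the interaction where they moved by over 1.5 times. They were 1969, 1757, 190, 2154, 2570 and 2893 as reported. The DESeq2 Wald test gave 3632, 3042, 430, 3749 and 4084 (interaction 4144). Without WT-NCD 1 and 2, which leaves 1 WT-NCD library assumed to vary like the other groups, they were 108, 103, 11, 76 and, for the interaction, 736. Without the KO-NCD and KO-HFD libraries 2 they were 510, 457, 61 and, for HFD, 1014, and 418 of the 457 were among the 1757. The additive fit gave 894 and 859, and a fold over 1.5 beside the adjusted p gave 1051 and 950. Treating the KO libraries of a number as correlated pairs in limma, chosen after seeing the data, gave 937 and 847. Size factors, other filters, seminal vesicle genes left out, the study's thresholds and limma without pairs stayed within 1.5 times.

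Leaving out 1 library at a time gave 779 to 2312 on the averaged contrast, 704 to 2008 shared genes, 49 to 235 on each diet, 499 to 2395 on NCD, 937 to 2783 on HFD and 1740 to 3055 for the interaction. The shared count moved by over 1.5 times without KO-NCD 2 (941), KO-NCD 3 (832), WT-NCD 1 (830), WT-NCD 3 (1081), KO-HFD 2 (704), WT-HFD 2 (976) or WT-HFD 4 (823).

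With the replicate block the counts were 535, 476, 64, 1209, 661 and 1356, and 451 of the 476 were among the 1757. In that fit WT-HFD 4 was alone in its number. It therefore added nothing to the estimated difference, and WT-HFD rested on WT-HFD 1 and 2. Same-numbered KO and WT libraries correlated at -0.0953, 0.262 and 0.0504 on NCD, so KO and WT share only a number. Leaving out 1 library at a time gave averaged log2 fold changes of Gja1 of -0.12 (reversed, without KO-NCD 2) to 0.33 (without KO-NCD 1), and leaving out both KO libraries 2 gave -0.23 (reversed). Of 127 named genes, 113 lost the call in at least 1 of up to 23 alternatives and 13 kept it in every fit that tested them. The causes of these shifts were not tested. Fits with libraries left out also had fewer samples.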

Other observations

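C1rb, a complement C1r gene on chromosome 6, was picked after its values were seen. It had 51.8, 21.0 and 59.0 CPM in KO-NCD libraries and 20.9, 42.1 and 56.7 CPM in KO-HFD libraries. WT-NCD libraries and WT-HFD 1 and 2 had no count, while WT-HFD 4 had 23.7 CPM. On NCD the gene was at least 879-fold higher in KO by a floor of 3 counts per library. WT-HFD 4 is the library whose column number is in no sample title. It was at the WT level for Zfp949, Serpina1b, Ecpas and Naip6. These genes were called in a fit that counted WT-HFD 4 as WT, so their levels cannot check its genotype.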
